A study of Mus musculus with 12 samples.

Results

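Branched-chain amino acid breakdown was followed in the heart through 10 genes, Bcat2, Bckdha, Bckdhb, Dbt, Bckdk, Ppm1k, Ivd, Mccc1, Mccc2 and Klf15. They were taken by gene symbol from the table of read counts, which holds 25171 loci, and each symbol occurred once. All 10 passed the filter on low counts in every comparison. In the hearts of NOTCH2NLC-(GGC)98 mice 6 of them (Bckdhb, Dbt, Ppm1k, Ivd, Mccc1 and Mccc2) were called lower than in controls in both models by edgeR. Of all genes tested, 8.30% were called lower in the model with EIIa-Cre and 9.38% in the model with Myh6 Cre. The share called in both was not counted. Bcat2 and Bckdha were called in 1 model each by edgeR and in both by DESeq2, and neither the kinase gene Bckdk nor Klf15 passed the test in either. The calls in the EIIa model depended on single hearts, as nearly all other calls there did.

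Leucine, isoleucine and valine are the branched-chain amino acids. A transaminase in the mitochondrion, encoded by Bcat2, turns them into branched-chain 2-oxoacids, and a large enzyme complex then removes carbon dioxide from these acids in a step that cannot be reversed. The complex is built from an E1 part (the alpha subunit Bckdha and the beta subunit Bckdhb), an E2 core (Dbt) and an E3 part that it shares with other dehydrogenases (Dld). Phosphorylation of E1 alpha by the kinase Bckdk switches the complex off, and the phosphatase Ppm1k switches it on again. On the leucine branch, isovaleryl-CoA dehydrogenase (Ivd) acts next, followed by methylcrotonyl-CoA carboxylase, whose alpha subunit is Mccc1 and whose beta subunit is Mccc2. Klf15 is a Kruppel-like zinc-finger factor that is induced by glucocorticoids and is known in heart and skeletal muscle as an activator of genes of this route.

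RNA from 12 mouse hearts was sequenced, 3 in each of 4 groups. All mice carried NOTCH2NLC-(GGC)98, the human gene with an expanded GGC repeat, at Rosa26 behind a floxed stop sequence that Cre recombinase removes. EIIa-ctl hearts came from mice at postnatal day 30 without EIIa-Cre, and EIIa-tg hearts from mice of the same age with EIIa-Cre, which acts in all tissues. Myh6-ctl and Myh6-tg hearts came from mice at postnatal day 90 that the labels give the same genotype, with a tamoxifen-inducible Cre (creERT2) under the Myh6 promoter, which acts in cardiomyocytes. Myh6-tg mice received 3 injections of tamoxifen at 75 mg per kg from day 60, and Myh6-ctl mice received the corn oil alone. No mice given tamoxifen without the transgene were sequenced among these samples, so that tamoxifen, active Cre and the transgene cannot be told apart in this model. Strain is not given in the sources used here. In the EIIa-tg group the genotype field is spelled differently for each replicate, and the 3 hearts were grouped by their titles.

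The libraries held between 38343106 and 50969834 counts, and the 10 genes had between 219 and 16778 counts in a heart. Values per heart below are normalised CPM, which are counts brought to a common library size by TMM scaling, and on this scale 3 counts, taken as the floor, correspond to between 0.0568 and 0.0815. Y-linked genes summed to at least 4224 counts in the first replicate of every group and to no more than 2 in replicates 2 and 3. By these counts replicate 1 was male and replicates 2 and 3 were female in each group. The level of the transgene was not analysed here. Esr1, the gene of the estrogen receptor whose ligand-binding part is used in creERT2, had between 1031 and 2331 normalised CPM in Myh6-ctl hearts and between 1.00 and 2.52 in Myh6-tg hearts, although both groups have the same genotype in the labels, and what separates them was not tested.

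The tissue label was checked with marker genes. The 7 cardiomyocyte markers (Myh6, Tnnt2, Tnni3, Actn2, Ryr2, Pln and Myl2) summed to between 28044 and 34794 normalised CPM in EIIa-ctl, between 15094 and 25083 in EIIa-tg, between 22824 and 27311 in Myh6-ctl and between 6329 and 19710 in Myh6-tg hearts. Of these 7, 1 was called lower in EIIa-tg and 4 were called lower in Myh6-tg hearts. The 6 fibroblast markers summed to between 1304 and 1866 in EIIa-ctl, between 2406 and 3487 in EIIa-tg, between 1740 and 2222 in Myh6-ctl and between 2614 and 6789 in Myh6-tg hearts, with 2 and 3 of them called higher. Of the macrophage and lymphocyte markers, 4 of the 5 tested were called higher in EIIa-tg and none of 6 in Myh6-tg hearts, and of 4 endothelial markers 2 were called lower in EIIa-tg and none in Myh6-tg hearts. Adipocyte, hepatocyte and brain markers, which could come with other tissue, summed to at most 4.10, 7.32 and 7.46 normalised CPM in any heart. In bulk tissue fewer cardiomyocytes and less RNA of a gene per cardiomyocyte cannot be told apart, which applies to every member described here.

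The starts of these genes were examined because the members moved together and because Kruppel-like factors are known to bind CACCC and GC boxes. RefSeq promoters on GRCm38.p6, from 250 bases before to 50 bases after the gene start, were at hand for 9 of the 10 members (all but Dbt) and numbered 11. The letters CACCC, searched on both strands, occurred in 7 of the 11, and in 57.5% of all 32851 promoters. The letters GGGGCGG, also on both strands, occurred in the promoters of Bckdhb, Mccc1 and Klf15, and in 23.2% of all promoters. No match of one motif overlapped a match of the other. Windows of 30 bases around a CACCC match are shown for the E1 beta subunit, the kinase, the leucine enzymes and Klf15, to let the sites be compared between genes that were called lower and genes that were not. They are written 5′ to 3′ on the strand of the gene, with the match in capitals, and GGGTG is the motif on the other strand.
Bckdhb (chr9:83924911-83924940, plus strand, 214 bases before the start): gtcgcgttgtgaCACCCcaagtcctgcagc
Bckdk (chr7:127903846-127903875, plus strand, 215 bases before the start): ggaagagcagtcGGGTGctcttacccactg
Ivd (chr2:118861922-118861951, plus strand, 60 bases before the start): ctactgaagcccCACCCcctccctgattgg
Mccc1 (chr3:36000732-36000761, minus strand, 71 bases before the start): cagttcactcccCACCCcccaggcacatgg
Mccc2 (chr13:100015814-100015843, minus strand, 192 bases before the start): tgggctagaggcGGGTGcatgcttgtgaca
Klf15 (chr6:90462457-90462486, plus strand, 107 bases before the start): tgggcagcgggaGGGTGcggccgaggcggg
The match shown lay closer to the start in Ivd and Mccc1 and far upstream in Bckdhb, Bckdk and Mccc2. Further CACCC matches lay 26 bases before the start in Mccc1 and 188 bases before it in Bckdhb. Bcat2, which is not shown, had its match 5 bases before the start. The kinase gene, which did not pass the test in either model, held the same letters as genes that fell and as 57.5% of all promoters. Whether the motif has a part in the changes of any of these genes was not tested. Neither motif was found in the windows of Bckdha and Ppm1k, which says only that these letters are not there.

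Transgenic hearts were set against the controls of their own model to ask which genes of the pathway differ with the transgene in the heart. Adjusted p values below come from edgeR's quasi-likelihood test with Benjamini-Hochberg adjustment over all genes tested, unless another fit is named. Genes were called at an adjusted p under 0.05. The p values set the difference between groups against the spread between these hearts, which edgeR estimates with information shared across genes. In EIIa-tg hearts 7 of the 10 members were lower (Bcat2, Bckdhb, Dbt, Ppm1k, Ivd, Mccc1 and Mccc2), against 8.30% of the 14908 genes tested that were called lower. In Myh6-tg hearts 7 of 10 were again lower (Bckdha, Bckdhb, Dbt, Ppm1k, Ivd, Mccc1 and Mccc2), against 9.38% of 15298 genes. DESeq2 called 8 lower in each model, adding Bckdha in the EIIa and Bcat2 in the Myh6 model, against 8.91% and 10.2% of genes. No member was called higher by edgeR in either model, where 8.65% and 8.96% of genes were. The median log2 fold change of the 10 members was -0.96 in EIIa-tg and -1.67 in Myh6-tg hearts, beside 0.02 and 0.03 over all genes tested. Groups did not overlap, with every transgenic heart below every control heart, for 8 of 10 members in the EIIa model and 7 of 10 in the Myh6 model, where this held for 20.8% and 19.6% of all genes tested.

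**Figure D1:**
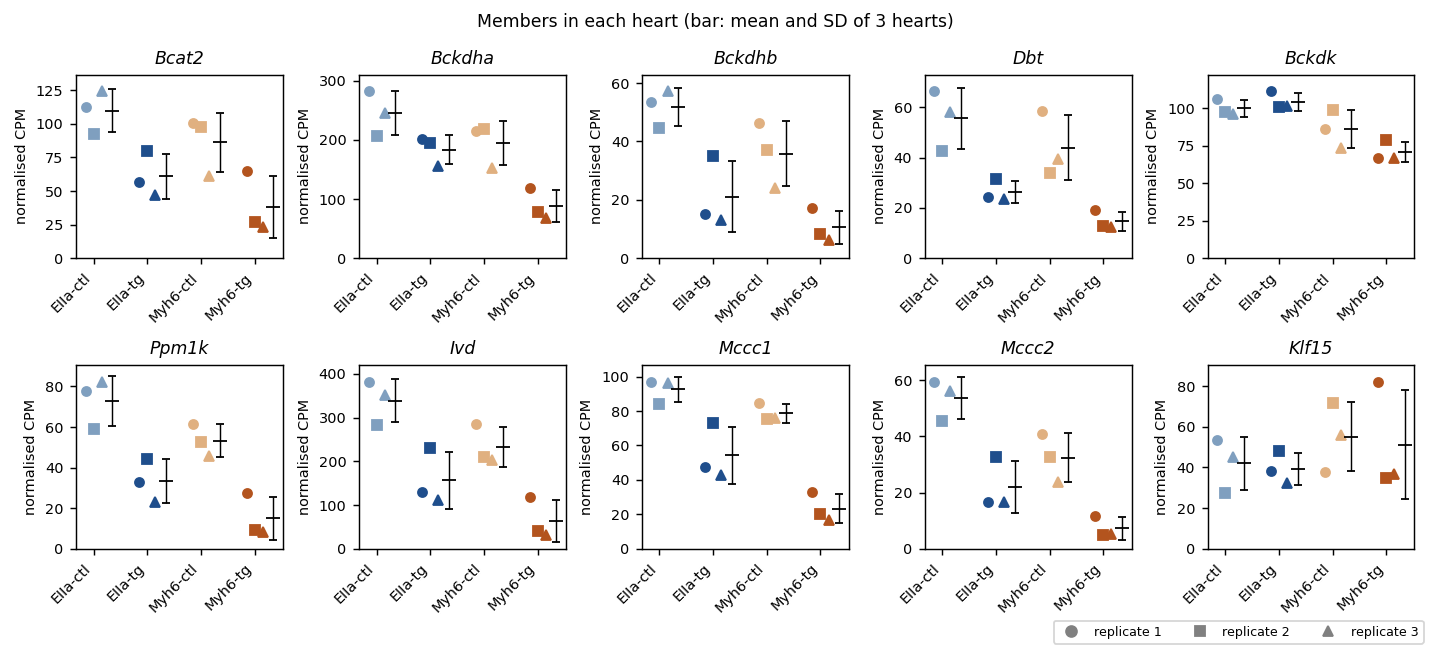
Normalised CPM (vertical axes, from 0) of each of the 10 genes in the 12 hearts, by group (horizontal axes), with a symbol for each replicate number and a bar for the mean and SD of 3 hearts. Ivd runs from 382 in an EIIa-ctl heart down to 30.7 in a Myh6-tg heart, whereas the groups of Klf15 overlap.

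The study's own thresholds, which ask for an adjusted p under 0.01 together with a change of at least 1 on the log2 scale, gave smaller counts. The study applied them to DESeq2, with which it found genes in both models, and here they were applied to the edgeR fits first. With edgeR none of the members passed them in EIIa-tg hearts, where no gene at all did (0% of those tested). At an unadjusted p under 0.05 there were 8 members, against 34.9% of all genes. With DESeq2 4 members passed them in EIIa-tg hearts, against 1.40% of genes that were lower by this rule. In Myh6-tg hearts Mccc1 alone passed with edgeR, against 2.05% of genes lower by this rule. With DESeq2 7 members passed, against 6.17% of genes. With the replicate number as a block, which pairs the same-numbered Myh6 hearts and was chosen from these same data, 7 members passed against 3.60% of genes. The calls in EIIa-tg hearts also rested on single hearts. All 7 were lost when EIIa-ctl replicate 1, EIIa-ctl replicate 3, EIIa-tg replicate 1 or EIIa-tg replicate 3 was left out. Nearly all other calls were lost with them, since 0%, 0.00650%, 0% and 0.877% of genes were called in these fits, in this order. All 7 passed the stricter thresholds when EIIa-tg replicate 2 was left out, against 3.02% of genes. The log2 fold changes of the 7 genes stayed negative in each of these fits.

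**Figure D2:**
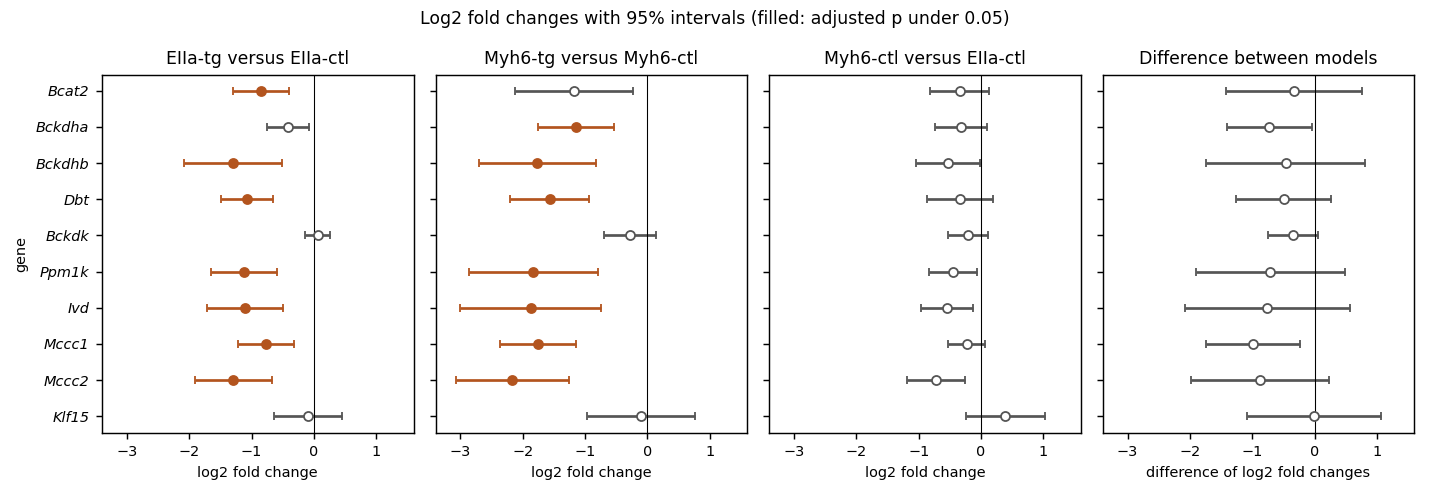
Log2 fold changes of the 10 genes (horizontal axes) with 95% intervals in the 3 comparisons of groups and, at the right, the Myh6 change minus the EIIa change. Filled points have an adjusted p under 0.05, of which there are 7 in each transgenic comparison and none in the others; the signs of Klf15 in both models and of Bckdk in the Myh6 model turn when libraries are scaled by their totals alone.

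Bcat2, the mitochondrial transaminase that begins the pathway (chromosome 7, 45570153 to 45589711, plus strand, GRCm38), was lower in EIIa-tg hearts. EIIa-ctl hearts had 112, 92.6 and 124 normalised CPM (replicates 1 to 3 in this order, here and below) and EIIa-tg hearts had 56.5, 79.7 and 46.8. The groups did not overlap, and the log2 fold change was -0.85 ± 0.20 (SE, n = 3 hearts per group here and below; adjusted p = 0.0298). Myh6-ctl hearts had 101, 97.5 and 61.2 and Myh6-tg hearts had 64.9, 26.8 and 22.96. Here Myh6-tg replicate 1 lay above Myh6-ctl replicate 3, and the log2 fold change of -1.18 ± 0.41 missed the threshold (adjusted p = 0.0843). Pairing the same-numbered Myh6 hearts by a block gave -1.30 (adjusted p = 0.0172), but this pairing was chosen from the same data. The cytosolic transaminase Bcat1 had at most 3.72 normalised CPM in any heart. Its log2 fold change was 0.69 in the EIIa model (adjusted p = 0.174) and 0.75 in the Myh6 model (adjusted p = 0.349).

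Of the oxoacid dehydrogenase complex, the E1 beta subunit and the E2 core were lower in both models, and the E1 alpha subunit was lower in Myh6-tg hearts. Bckdha, the E1 alpha subunit that carries the regulatory phosphorylation sites (chromosome 7, 25629946 to 25658981, minus strand), had 282, 207 and 246 normalised CPM in EIIa-ctl and 201, 195 and 156 in EIIa-tg hearts. The groups did not overlap, but EIIa-tg replicate 1 was close to EIIa-ctl replicate 2, and the log2 fold change was -0.42 ± 0.15 (adjusted p = 0.0821). In the Myh6 model it had 214, 218 and 152 in control and 118, 78.8 and 67.95 in transgenic hearts, without overlap, and fell by 1.14 ± 0.26 on the log2 scale (adjusted p = 0.0237). Bckdha shares 5155 bases with B3gnt8 on the other strand, which had between 17.4 and 36.1 normalised CPM, and since the strand setting of the counting is not given in the sources used here, reads of the shared part cannot be assigned to one gene. Bckdhb, the E1 beta subunit (chromosome 9, 83925145 to 84124240, plus strand), had 53.5, 44.6 and 57.2 in EIIa-ctl and 15.04, 35.02 and 13.03 in EIIa-tg hearts. It fell by 1.30 ± 0.34 (adjusted p = 0.0393) without overlap, and EIIa-tg replicate 2 stood well above the other EIIa-tg hearts. Myh6-ctl hearts had 46.2, 36.98 and 24.2 of Bckdhb and Myh6-tg hearts had 17.1, 8.22 and 6.27, a fall by 1.77 ± 0.41 (adjusted p = 0.0241), again without overlap.

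Dbt, the E2 core that holds the complex together (chromosome 3, 116513070 to 116549981, plus strand), had 66.4, 42.4 and 58.1 normalised CPM in EIIa-ctl hearts and 24.2, 31.5 and 23.6 in EIIa-tg hearts. Among the members it had the smallest adjusted p in this model, with a fall by 1.07 ± 0.18 (adjusted p = 0.0167), and its EIIa-tg hearts lay closer together than its controls. In the Myh6 model the values were 58.4, 33.8 and 39.5 in controls and 19.1, 12.8 and 12.4 in transgenic hearts, which did not overlap, and Dbt fell by 1.57 ± 0.27 (adjusted p = 0.0107). It was called in each of the 20 alternative fits of the Myh6 comparison, as was Mccc1. The E3 subunit Dld, which the complex shares with the pyruvate and 2-oxoglutarate dehydrogenases, fell by 0.64 (adjusted p = 0.0408) in EIIa-tg and by 1.26 (adjusted p = 0.0347) in Myh6-tg hearts.

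The subunits did not fall by the same amount within a heart. The ratio of Bckdha to Bckdhb counts, which needs no scaling between libraries, averaged 4.72 in control and 9.61 in transgenic hearts of the EIIa model (means of log2 ratios, written as ratios), with the lowest EIIa-tg heart at 5.55 and the highest control at 5.28. The Myh6 model had 5.56 on average in controls, the highest at 6.29, and 8.95 in transgenic hearts, the lowest at 6.89. The groups did not overlap in either model, and the differences were 1.02 and 0.69 on the log2 scale. The ratio of Bckdha to Dbt was higher by 0.65 in EIIa-tg hearts without overlap and by 0.40 in Myh6-tg hearts with overlap. For the transaminase against E1 alpha (Bcat2 to Bckdha) the groups overlapped in both models. No test was run on these ratios, which were chosen with earlier results of these data known.

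Of the regulators of the complex, the phosphatase was lower in both models and the kinase did not pass the test. Bckdk, the kinase that inactivates it (chromosome 7, 127904082 to 127910221, plus strand), had 106, 97.7 and 95.8 normalised CPM in EIIa-ctl and 111, 101 and 101 in EIIa-tg hearts. These groups overlapped, with a log2 fold change of 0.06 ± 0.09 (95% interval -0.14 to 0.26, adjusted p = 0.667), which became 0.26 with library totals (adjusted p = 0.0808). By FPKM the EIIa-tg hearts (28.999 to 32.8) all lay above the EIIa-ctl hearts (24.7 to 27.8), and limma gave 0.25 on log2(FPKM + 1) (adjusted p = 0.103). In Myh6-ctl hearts Bckdk had 85.8, 98.5 and 73.6 and in Myh6-tg hearts 66.8, 78.5 and 66.7, also with overlap. Its log2 fold change there was -0.28 ± 0.18 (95% interval -0.70 to 0.13, adjusted p = 0.307) and became 0.13 when libraries were scaled by their totals alone. Ppm1k, the mitochondrial phosphatase that reactivates the complex (chromosome 6, 57506502 to 57535468, minus strand), had 77.5, 58.9 and 82.3 in EIIa-ctl and 33.1, 44.5 and 23.1 in EIIa-tg hearts. It fell by 1.12 ± 0.23 (adjusted p = 0.0228), and every EIIa-tg heart was below every control. Myh6-ctl hearts had 61.7, 52.5 and 45.7 of Ppm1k and Myh6-tg hearts 27.3, 9.35 and 8.33. Ppm1k fell by 1.83 ± 0.45 in this model (adjusted p = 0.0296), and Myh6-tg replicate 1 lay within the range of the EIIa-tg hearts while the other Myh6-tg hearts lay below it.

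The ratio of kinase to phosphatase transcripts was higher in every transgenic heart than in any control heart of its model. Bckdk counts were 1.38 times those of Ppm1k in EIIa-ctl hearts (mean of log2 ratios, lowest heart 1.16, highest 1.66) and 3.22 times in EIIa-tg hearts (2.26 to 4.39). In Myh6-ctl hearts they were 1.61 times (1.39 to 1.88) and in Myh6-tg hearts 5.48 times (2.44 to 8.40). The groups did not overlap, and the differences were 1.22 and 1.76 on the log2 scale by counts and 1.21 and 1.80 by the authors' FPKM. The low value of 2.44 among the Myh6-tg hearts belonged to replicate 1. The ratio compares transcripts and is no measure of the phosphorylation of the complex.

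**Figure D3:**
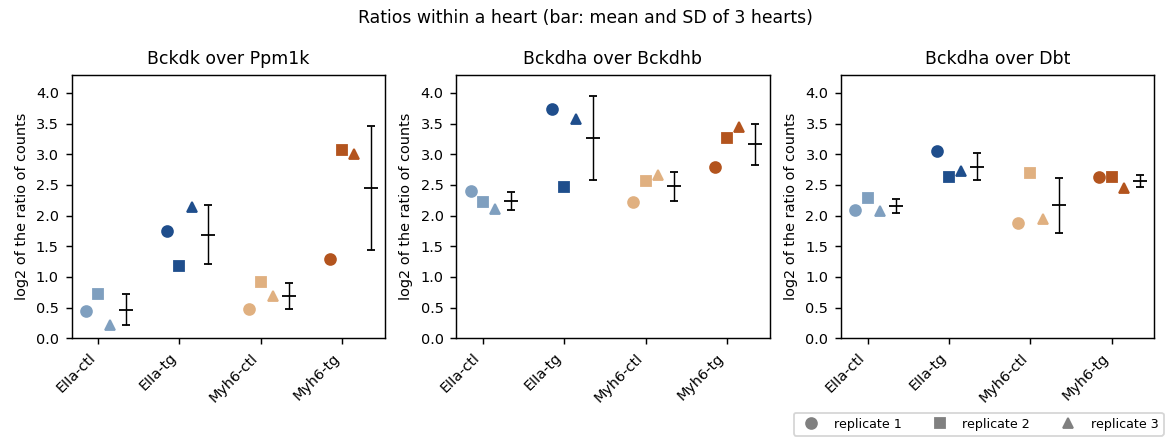
Log2 ratios of counts within each heart (vertical axes) for Bckdk over Ppm1k, Bckdha over Bckdhb and Bckdha over Dbt in the 4 groups, with a bar for the mean and SD of 3 hearts. Transgenic hearts lie above their controls without overlap for Bckdk over Ppm1k and Bckdha over Bckdhb in both models, and for Bckdha over Dbt in the EIIa model.

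The enzymes of the leucine branch were lower in both models. Ivd, which oxidises isovaleryl-CoA (chromosome 2, 118861954 to 118882909, plus strand), had 382, 284 and 351 normalised CPM in EIIa-ctl and 129, 232 and 111 in EIIa-tg hearts. EIIa-tg replicate 2 was the highest of its group, still below all controls, and Ivd fell by 1.11 ± 0.27 (adjusted p = 0.0314). Myh6-ctl hearts had 285, 209 and 203 of Ivd and Myh6-tg hearts 119, 41.7 and 30.7, a fall by 1.87 ± 0.49 (adjusted p = 0.0359). Mccc1, the biotin-carrying alpha subunit of methylcrotonyl-CoA carboxylase (chromosome 3, 35959312 to 36000678, minus strand), had 96.98, 84.04 and 96.6 in EIIa-ctl and 47.3, 73.2 and 42.6 in EIIa-tg hearts and fell by 0.77 ± 0.20 (adjusted p = 0.0361). The Myh6 controls lay close together at 84.9, 75.3 and 75.8, far above the Myh6-tg hearts at 32.9, 19.98 and 16.8. Its fall by 1.76 ± 0.26 had the smallest adjusted p of the members (0.00682).

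Mccc2, the beta subunit of the carboxylase (chromosome 13, 99948530 to 100015639, minus strand), showed the largest fold change of the members in Myh6-tg hearts. It had 59.4, 45.3 and 56.2 normalised CPM in EIIa-ctl and 16.5, 32.6 and 16.6 in EIIa-tg hearts, a fall by 1.29 ± 0.27 (adjusted p = 0.0227). In Myh6-ctl hearts it had 40.96, 32.6 and 23.8 and in Myh6-tg hearts 11.8, 4.75 and 5.19, a fall by 2.17 ± 0.39 (adjusted p = 0.0120). Neither pair of groups overlapped.

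Klf15 (chromosome 6, 90462576 to 90475238, plus strand) did not pass the test in either model. It had 53.2, 27.7 and 45.2 normalised CPM in EIIa-ctl and 38.02, 47.9 and 32.2 in EIIa-tg hearts, which overlapped, with a log2 fold change of -0.10 ± 0.24 (95% interval -0.64 to 0.45, adjusted p = 0.809). Myh6-ctl hearts had 37.98, 71.6 and 55.9 and Myh6-tg hearts 82.1, 34.9 and 36.7, also with overlap. The log2 fold change was -0.11 ± 0.38 (95% interval -0.98 to 0.76, adjusted p = 0.874), and both became positive, at 0.10 and 0.26, when libraries were scaled by their totals alone. One heart weighed on the Myh6 value, since Myh6-tg replicate 1 had more than any other heart. In replicates 2 and 3 of each group alone, the hearts with at most 2 Y-linked counts, the Myh6 log2 fold change was -0.83 (adjusted p = 0.0300). The intervals are wide enough to hold a change of either sign.

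Klf15 and the enzymes were compared across hearts as a description. Over the 12 hearts Pearson's r of log2 CPM between Klf15 and the 8 members other than Bckdk lay between 0.11 and 0.31, and between 0.41 and 0.75 once group means were subtracted. For Bckdk the values were -0.25 and 0.01. Points of one heart share its library and its scaling. Of 10204 genes with a mean of at least 5 CPM, those most like Klf15 over the 12 hearts were Tmem106b (r = 0.87), Rnf13 (0.83), Nrbp2 (0.82), Ankra2 (0.82) and Lrrc10 (0.80), and their values after subtraction of group means lay between 0.81 and 0.89.

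Levels of different genes were set side by side by the authors' FPKM, which are per length of transcript. Bckdha was the highest of the 10 genes in every group, with a mean of 113 in EIIa-ctl hearts (101 to 127, the lowest and highest of 3). It had 97.2 ± 8.13 (SD, n = 3) in EIIa-tg hearts, 90.2 ± 7.56 in the Myh6 controls and 53.7 ± 11.1 in the Myh6 transgenic hearts. Ppm1k was the lowest in every group, at 11.5 ± 1.62, 6.04 ± 1.65, 8.50 ± 0.925 and 3.05 ± 1.91. In EIIa-ctl hearts Ivd (81.3), Bcat2 (55.3), Mccc1 (32.7), Bckdhb (30.9), Bckdk (26.3), Mccc2 (22.2), Klf15 (15.8) and Dbt (14.8) stood between them. Neighbours whose hearts overlapped in that order were Mccc1 and Bckdhb, Klf15 and Dbt, and Dbt and Ppm1k. The order was different in Myh6-tg hearts, where Bckdk (25.5 ± 3.34) and Klf15 (25.02 ± 10.9) followed Bckdha and were themselves followed by Bcat2 (24.5), Ivd (19.6), Mccc1 (10.7), Bckdhb (8.14), Dbt (5.195) and Mccc2 (3.94). All neighbours below Bckdha overlapped there. Ivd had moved from rank 2 in both control groups to rank 5, and Bckdk from rank 5 in Myh6-ctl to rank 2.

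**Figure D4:**
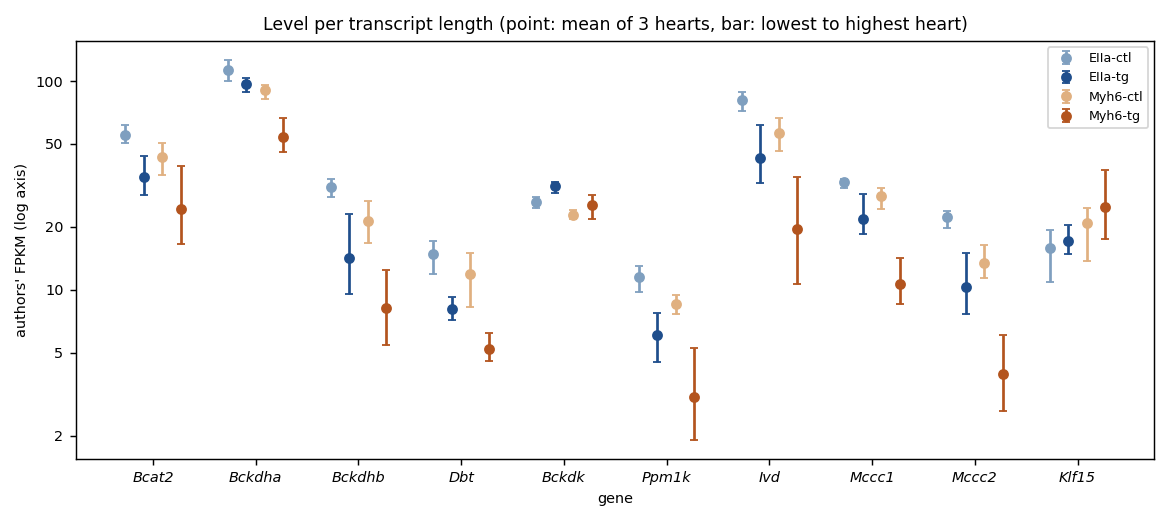
The authors' FPKM (vertical log axis) of the 10 genes in the 4 groups, with a point for the mean of 3 hearts and a bar from the lowest to the highest heart. Bckdha stands highest and Ppm1k lowest in every group, and Bckdk and Klf15 lie within the upper 3 genes in Myh6-tg hearts.

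Because the summed cardiomyocyte markers were lower in every transgenic heart than in the controls of its model, the members were also expressed relative to the sum of the 7 markers in the same heart. On this scale the median difference over the 10 members was -0.18 in the EIIa model and -0.34 in the Myh6 model (log2), against -0.96 and -1.67 on the normalised scale. In EIIa-tg hearts Bckdhb (-0.66), Mccc2 (-0.58), Ivd (-0.39) and Ppm1k (-0.38) remained below all controls. In Myh6-tg hearts Mccc2 (-0.91), Ivd (-0.76), Ppm1k (-0.69), Bckdhb (-0.50) and Mccc1 (-0.47) remained below all controls. Bcat2 overlapped in both models (-0.09 and 0.04), as did Bckdha (0.37 and 0.18) and Dbt (-0.28 and -0.21). Klf15 lay above all controls in both models, by 0.72 and 1.17, as did Bckdk in the EIIa model, by 0.85, whereas it overlapped in the Myh6 model (1.07). The sum is weighted towards the markers with the most counts, and the markers differ in their changes. In the Myh6 model the mean of Myh6 went from 9099 to 1505 normalised CPM and that of Pln from 5485 to 960. Tnni3, Ryr2 and Myl2 had lower means as well. The means of Tnnt2 (3962 to 5394) and Actn2 (1299 to 1940) were higher there, as was that of Tnnt2 in the EIIa model (4064 to 4344), though neither was called. These ratios are counts over counts with no test, and the part that cell composition has in the members' fall was not tested. How many of all genes lay below or above all controls on this scale was not counted.

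A second scale was the mean log2 count, in the same heart, of 17 TCA cycle genes, which mark mitochondrial metabolism in general. In the EIIa model 7 members stayed below all controls on this scale, with a median difference of -0.52 over the 10 members, and Bckdk (0.51) and Klf15 (0.38) lay above all controls. In the Myh6 model 4 members did (Bckdhb, Ppm1k, Mccc1 and Mccc2), with a median of -0.39, while Bckdha (0.14), Bckdk (1.03) and Klf15 (1.13) lay above all controls. Mccc2 was lower by 0.92 and 0.96, and Bckdhb by 0.99 and 0.55 in the EIIa and Myh6 models. The share of all genes without overlap on this scale was not counted, so these numbers of members have no background beside them.

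Genes that act beside the 10 members fell as well. Of 24 further genes of branched-chain catabolism, which take up the amino acids, finish the isoleucine and valine branches or carry propionyl-CoA to succinyl-CoA, 15 were called lower and 1 higher in EIIa-tg hearts, and the list's median was -0.60 (log2). In Myh6-tg hearts 16 were lower and 2 higher, with a median of -1.26. In EIIa-tg hearts the largest falls were those of Abat, a transaminase that also acts on 4-aminobutyrate (-1.76, adjusted p = 0.0186), Mmab, which makes the cobalamin cofactor of methylmalonyl-CoA mutase (-1.36, adjusted p = 0.0282), and Oxct1, the enzyme of ketone body use (-1.28, adjusted p = 0.0465). In Myh6-tg hearts Acat1, the mitochondrial thiolase (-2.05, adjusted p = 0.00367), and Oxct1 (-1.85, adjusted p = 0.00945) fell most. The genes called higher encode both chains of a plasma membrane transporter that brings leucine into cells. Slc7a5, its light chain, rose by 1.90 in Myh6-tg hearts (adjusted p = 0.00949) and had 0.69 in EIIa-tg hearts (adjusted p = 0.0640). Slc3a2, its heavy chain, named after its values were seen, rose by 0.86 in EIIa-tg (adjusted p = 0.0166) and by 1.15 in Myh6-tg hearts (adjusted p = 0.01002). Slc25a44, the mitochondrial carrier of branched-chain amino acids, did not pass the test, at -0.21 (adjusted p = 0.281) and 0.03 (adjusted p = 0.929). Without EIIa-ctl replicate 1, EIIa-ctl replicate 3, EIIa-tg replicate 1 or EIIa-tg replicate 3 no gene of these 24 was called in the EIIa model. The number lower in Myh6-tg hearts, 16 with all hearts, was 6 without Myh6-ctl replicate 1, Myh6-tg replicate 2 or Myh6-tg replicate 3, 8 without Myh6-ctl replicate 2 and 10 without Myh6-ctl replicate 3.

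**Figure D5:**
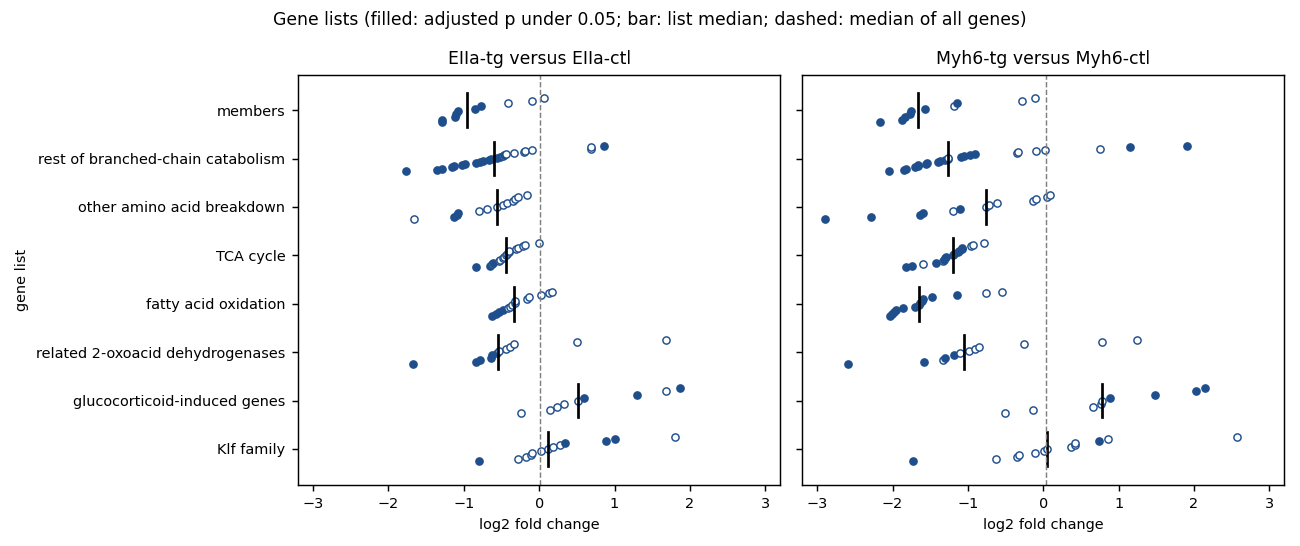
Log2 fold changes (horizontal axes) of the 10 members and of 7 other gene lists in the EIIa and Myh6 models, with a point for each gene, filled at an adjusted p under 0.05, a bar for the list's median and a dashed line for the median of all genes. The members' medians of -0.96 and -1.67 lie to the left of the dashed lines at 0.02 and 0.03, and the list of glucocorticoid-induced genes, which also holds the receptor gene Nr3c1, lies mostly to the right.

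Genes of other mitochondrial routes were lower too. Of 13 genes of other amino acid breakdown, 3 were lower in EIIa-tg hearts, the proline oxidase Prodh (-1.13), Aldh4a1 of the same pathway (-1.09) and the glutaryl-CoA dehydrogenase Gcdh (-1.07). In Myh6-tg hearts 5 were lower, of which the alanine transaminase Gpt (-2.89), Aldh4a1 (-2.29) and Gcdh (-1.64) had the largest changes, followed by Gpt2 (-1.60) and Oat (-1.10), which were named after their values were seen. Of 17 TCA cycle genes 3 were lower in EIIa-tg (Dlst -0.83, Idh3b -0.65 and Cs -0.62) and 12 in Myh6-tg hearts, where Idh3b (-1.82), Suclg2 (-1.74) and Sdha (-1.43) led. Of 14 fatty acid oxidation genes 4 were lower in EIIa-tg (Cpt2 -0.63, Etfdh -0.57, Acads -0.54 and, seen afterwards, Hadh -0.47) and 12 in Myh6-tg hearts, led by Cpt2 (-2.03), Eci1 (-2.01) and Hadh (-1.99). The median log2 fold changes of these lists were -0.56, -0.44 and -0.34 in the EIIa model and -0.75, -1.19 and -1.65 in the Myh6 model, beside the members' -0.96 and -1.67. In the EIIa model no gene of these 3 lists was called when EIIa-ctl replicate 1, EIIa-ctl replicate 3, EIIa-tg replicate 1 or EIIa-tg replicate 3 was left out. With a Myh6 heart left out, between 1 and 7 genes of other amino acid breakdown, between 2 and 17 of the TCA cycle and between 9 and 13 of fatty acid oxidation were lower in the Myh6 model, with the fewest without Myh6-ctl replicate 1 (the first 2 lists) or Myh6-tg replicate 2 (all 3).

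The sister complexes, which oxidise pyruvate and 2-oxoglutarate, have their own kinases and phosphatases. Of 12 genes of these complexes, of which Dlst and Ogdh also stand in the TCA list and Pdk4 in the list of glucocorticoid-induced genes, 6 were lower in EIIa-tg and 4 in Myh6-tg hearts, and 9 were lower in Myh6-tg hearts with the replicate number as a block. Pdp2, a phosphatase that reactivates pyruvate dehydrogenase as Ppm1k does its own complex, fell by 1.68 in EIIa-tg (adjusted p = 0.0302) and by 2.59 in Myh6-tg hearts (adjusted p = 0.0116). Dlat, the E2 core of pyruvate dehydrogenase, fell by 0.79 in EIIa-tg hearts, and Dlst, the E2 core of 2-oxoglutarate dehydrogenase, by 0.83 and 1.30 in the EIIa and Myh6 models. None of the 12 was called in the EIIa model without EIIa-ctl replicate 1, EIIa-ctl replicate 3, EIIa-tg replicate 1 or EIIa-tg replicate 3, and the number lower in the Myh6 model was between 1 and 9 with a Myh6 heart left out. Among the kinases Pdk2 fell by 1.59 in Myh6-tg hearts (adjusted p = 0.0445).

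Genes tied to glucocorticoids were examined because Klf15 is known to be induced by these hormones. The list held 8 genes that are known to be induced and Nr3c1, the gene of the receptor itself, which did not pass the test at -0.24 (adjusted p = 0.0879) and -0.51 (adjusted p = 0.0758). Of these 9 genes 3 were called higher in EIIa-tg and 4 in Myh6-tg hearts, none was called lower, and the medians were 0.52 and 0.78. Fkbp5, a co-chaperone of the receptor, rose by 1.87 (adjusted p = 0.0147) and 2.15 (adjusted p = 0.0143), Cebpd by 1.30 and 1.49, and the clock gene Per1 by 0.60 (adjusted p = 0.0497) and 2.03 (adjusted p = 0.0334). The kinase Sgk1, named after its values were seen, rose by 0.88 in Myh6-tg hearts. The number called higher was 1 in Myh6-tg hearts without Myh6-tg replicate 2 or without Myh6-tg replicate 3, and at most 1 in EIIa-tg hearts when any 1 of the same 4 EIIa hearts was left out. Of 13 genes of the Klf family, Klf15 included, Klf11 (1.01), Klf10 (0.88) and, seen afterwards, Klf13 (0.34) were higher and Klf12 (-0.80) was lower in EIIa-tg hearts. In Myh6-tg hearts Klf12 (-1.73) was lower and Klf6 (0.74) higher, and with the replicate number as a block Klf2 (-0.60) was lower as well. No gene of this family was called in the EIIa model when any 1 of the same 4 EIIa hearts was left out, nor in the Myh6 model without Myh6-ctl replicate 1, Myh6-tg replicate 2 or Myh6-tg replicate 3.

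The control groups differ in age, Cre allele and oil injection together, so that their difference has no single label. No member was called between Myh6-ctl and EIIa-ctl hearts by edgeR, where 0.0334% of 14990 genes were called, while 4 members (Bckdhb, Ppm1k, Ivd and Mccc2) had an unadjusted p under 0.05, against 11.3% of all genes, and DESeq2 called 1, Mccc2, against 0.707% of genes lower by that tool. Mccc2 had the largest difference, -0.72 ± 0.21 (adjusted p = 0.230), and was the 1 member of 10 whose control groups did not overlap, which held for 8.71% of genes in this direction. Ivd followed with -0.54 ± 0.18 (adjusted p = 0.319), and Klf15 had 0.39 ± 0.28 (adjusted p = 0.649). The median over the members was -0.34, beside 0.02 over all genes. This comparison shares its control hearts with the transgenic comparisons.

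Whether the change differed between the models was tested over all 12 hearts as the Myh6 change minus the EIIa change. No member was called by edgeR, where 3.92% of 15929 genes were, nor by DESeq2 (6.71%), and 2 of 10 members had an unadjusted p under 0.05, where 19.4% of all genes did. These were Mccc1, with a difference of -0.99 ± 0.35 (95% interval -1.75 to -0.24, adjusted p = 0.137), and Bckdha, with -0.73 ± 0.31 (95% interval -1.41 to -0.05, adjusted p = 0.226). All 10 differences were negative, with a median of -0.60 beside -0.04 over all genes, and those of Bckdhb (-0.47) and Klf15 (-0.01) changed sign in some alternatives. The intervals of Dbt (-1.26 to 0.26) and Ppm1k (-1.91 to 0.49) reach from a much larger fall in the Myh6 model to a smaller one. Without Myh6-tg replicate 1, 4 members were called (Bckdha, Ppm1k, Ivd and Mccc1), against 6.62% of genes that were more negative in the Myh6 model. Among the 24 further genes of the route 3 were called, and these were Acat1, Hadha and Mmaa, all lower in the Myh6 model.

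Single hearts stood apart in the members as they did in other genes. EIIa-tg replicate 2 was the highest of its group in 8 of the 10 members, which was also so for 83.6% of the 1238 genes called lower in that model. Myh6-tg replicate 1 was the highest of its group in 9 of 10 members, and in 60.8% of 1435 genes called lower. Without Myh6-ctl replicate 1, 2 members were called in the Myh6 comparison, against 2.58% of genes called lower. There were 3 without Myh6-ctl replicate 2, Myh6-tg replicate 2 or Myh6-tg replicate 3, against 5.73%, 3.09% and 3.00% of genes in this order. With library totals in place of TMM the median over all genes went from 0.02 to 0.21 in the EIIa model and from 0.03 to 0.43 in the Myh6 model. It changed the genes called higher and lower from 1289 and 1238 to 2531 and 642 in the EIIa model, and from 1370 and 1435 to 3153 and 854 in the Myh6 model. The members called were 7 lower in each model under this scaling too. Mitochondrially encoded genes, whose share enters these totals, took between 34.2% and 36.7% of counts in EIIa-ctl, between 28.5% and 32.3% in EIIa-tg, between 31.8% and 38.3% in Myh6-ctl and between 15.5% and 18.6% in Myh6-tg hearts.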

How the data were processed

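Heart RNA of 12 mice was sequenced (Illumina NovaSeq, paired ends), and the authors mapped reads to GRCm38 with Hisat2; the submitters' processing notes list HISAT2 2.0.4, StringTie 2.2.1 and DESeq2. The authors deposited whole-number counts per gene without normalization and FPKM values, which are scaled to transcript length and library size. The counting program, strand setting and annotation release are not given in the sources used here. The extraction protocol in the labels names brain, whereas the tissue label is heart.

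In edgeR 4.0.16 (R 4.3.3), low counts were filtered with filterByExpr, libraries were scaled by TMM and quasi-likelihood fits (glmQLFit, glmQLFTest) used the 6 hearts compared, or all 12 for the difference between models. Normalised CPM were scaled over the 12 hearts, and correlations took log2 CPM (prior count 2). Alternatives were DESeq2 1.42.0, RLE factors, library totals, no filter, a CPM of at least 1 in 3 hearts, a joint fit of all 12 hearts, a replicate block, a sex term, removal of mt- genes or NewGene loci, limma 3.58.1 on log2(FPKM + 1) and log2(FPKM + 0.1), and leaving out each heart. Replicates 2 and 3 alone were added after seeing the data. Same-numbered hearts deviated together in the Myh6 model (r across genes 0.28, 0.18 and 0.17), so the number was taken to pair these hearts there. That pairing comes from the data, as no source says what a number shares. The Y-linked counts show that first replicates share male sex, which the sex term encodes, while sex does not separate replicates 2 and 3. What part sex has in the pairing was not tested. The tests were checked on simulated data.

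The members, lists and tests were chosen with earlier results of these data known. Named by rule were the members, Dld, Bcat1, Slc25a44 and up to 3 called genes with the largest change of each list and transgenic comparison, of which some items are not reported here. Intervals are at 95%, and the floor of 3 counts covers counting error only. Positions are from GENCODE M21 (GRCm38), promoters from RefSeq. Figures were drawn with matplotlib 3.10.9.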

Additional observations from a re-analysis of the deposited data

Results flagged for a closer look

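By the test of the difference between models, the Myh6 change minus the EIIa change, 12 genes of the lists beside the members were called, all more negative in the Myh6 model and most of them named after their values were seen. The log2 differences were -1.53 for Acat1, -1.38 for Hadha and -1.37 for Mmaa of the branched-chain route. For fatty acid oxidation they were -1.85 for Eci1, -1.61 for Acaa2, -1.51 for Acadvl, -1.51 for Hadh, -1.47 for Hadhb, -1.40 for Cpt2, -1.38 for Etfb and -1.28 for Cpt1b. Suclg2 of the TCA cycle had -1.29. None of the 10 members was among the genes called.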

How the results depend on the processing

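The number of members called lower in EIIa-tg hearts was 7 as reported and 0 at the study's thresholds applied to edgeR. It was also 0 with all 12 hearts in one fit and with limma on log2(FPKM + 1) without a filter. It was 0 too with the replicate number as a block and in replicates 2 and 3 only. It was 4 with a sex term and between 0 and 7 with a heart left out, and DESeq2 called 8. Of all genes, 1238 of 14908 were called lower as reported and 0 at the study's thresholds. The count was 51 of 15929 with all 12 hearts and 0 with limma without a filter, with the block and in replicates 2 and 3. With a sex term it was 718 of 14908, with DESeq2 1737 of 19490 and with a heart left out between 0 and 2110. In Myh6-tg hearts the number of members called lower was 7 as reported and 1 at the study's thresholds applied to edgeR. It was 8 with the replicate number as a block, DESeq2, a sex term or all 12 hearts in one fit. Replicates 2 and 3 only gave 9, Klf15 among them, and leaving out a heart gave between 2 and 8. Of all genes, 1435 of 15298 were called lower as reported and 314 at the study's thresholds. The count was 1711 with the block, 1860 with a sex term, 2055 of 20052 with DESeq2 and 2574 of 15929 with all 12 hearts. It was 1728 of 15709 in replicates 2 and 3 and between 411 and 2226 with a heart left out. DESeq2 called 1 member between the control groups, against 0, and between 0 and 4 members differed between models with a heart left out. Of all genes, between 293 and 1727 differed between models in these last fits. Same-numbered hearts did not deviate together in the EIIa model (r across genes 0.06, -0.07 and -0.05), and with the replicate number as a block 1 gene in all was called there, against 2527. In the Myh6 model the block changed the call of Bcat2 and of no other member, and it gave no member in the comparison of controls or the difference between models. Over all genes DESeq2 called 429 between the control groups, against 5, and 1396 between models, against 624, and at the study's thresholds 836 in the EIIa model, against 0, and 2137 in the Myh6 model, against 608.

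Signs turned for genes whose changes were small. Klf15 in the EIIa model had 0.10 with library totals, 0.13 with limma on log2(FPKM + 0.1), 0.12 with log2(FPKM + 1), with or without a filter, and 0.14 in replicates 2 and 3 only, and between -0.33 and 0.11 with a heart left out. In the Myh6 model, in the same order, Klf15 had 0.26, 0.22 and 0.21, and with a heart left out between -0.62 and 0.12, and Bckdk had 0.13, 0.16 and 0.15. The difference between models of Klf15 was 0.16, 0.0897 and 0.0900, and between -0.53 and 0.22 with a heart left out, and that of Bckdhb lay between -1.02 and 0.12. The causes were not tested. Ratios of the kinase to the phosphatase kept their direction by counts and FPKM. With 3 hearts in a group, the smallest two-sided exact p of a single value is 0.1, so no such test was used.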
